A study of Mus musculus with 14 samples.

Results

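The transcripts of the 4 Id genes of the mouse, Id1, Id2, Id3 and Id4, were followed through the Atoh1 lineage of the developing hindbrain. The genes were chosen by symbol alone, as 4 of the 31054 genes listed in the count tables, and all 4 had UMIs at every stage. Messenger RNA was counted, so nothing below is a measurement of Id protein. In the mouse genome build GRCm38, Id1 (ENSMUSG00000042745) lies on the plus strand at chr2:152736251-152737410 and Id2 (ENSMUSG00000020644) on the minus strand at chr12:25093799-25097140. Id3 (ENSMUSG00000007872) lies on the plus strand at chr4:136143497-136145755 and Id4 (ENSMUSG00000021379) on the plus strand at chr13:48261228-48266026. UMIs were summed over the whole of each gene, so its annotated transcripts were not separated.

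Id proteins have the helix-loop-helix that lets such factors pair, but they lack the basic region that touches DNA. They bind the E proteins encoded by Tcf3, Tcf4 and Tcf12, which are the usual partners of tissue-specific basic helix-loop-helix factors such as Atoh1, and so keep those factors off DNA. BMP signaling through Smad proteins is a well known inducer of Id transcription in the dorsal neural tube, and Id genes are typical of dividing progenitors and of glia.

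Atoh1-lineage cells, marked by a Cre-dependent TdTomato reporter, were sorted and sequenced on the 10X Genomics Chromium platform in 14 libraries of C57BL/6J mice. At E14.5 and at E18.5 there were 3 hindbrains of control embryos (Atoh1Cre/+; Rosa lsl-tdTomato/+) and 3 of Atoh1S193A/- embryos (Atoh1Cre/S193A; Rosa lsl-tdTomato/+), 1 embryo per library. At P5 there were 2 libraries of microdissected pontine nuclei of control pups, each pooled from 11 to 13 pups. The Cre replaces the coding region of 1 copy of Atoh1, so the control embryos also carry a null allele, and the mutants have only the hypomorphic S193A copy. S193A changes a single residue, so a count of Atoh1 transcripts does not check the genotype label. The reporter marks any cell whose ancestors used Cre from the Atoh1 locus. The sorted cells also held choroid plexus-like, astroglia-like, microglia-like and vascular or fibroblast-like cells, and how they came into the sort was not tested.

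The libraries held 7972 to 15821 barcodes and from 108239001 to 236964126 UMIs each. After filtering, 34424 cells were kept at E14.5, 31819 at E18.5 and 14006 at P5. The E14.5 control 1 library had the highest share of mitochondrial UMIs at its stage and kept 3248 cells, the fewest of the 12 embryonic libraries. Pairs of libraries shared at most 0.624% of their barcodes. Cells were clustered within a stage without using the Id genes, the genes of the lists named below or sex-linked genes, and the clusters were given "-like" names from fixed marker genes. Some list genes, among them Msx1, Atoh1, Hes6, Nhlh1 and Neurod1, were also marker genes. Their levels had a part in the names of the classes in which they are read below. Hox-positive clusters carried at least 100 CPM (UMI counts scaled to a common library total) of Hoxb2 to Hoxb5 together, a sign of the caudal hindbrain from which pontine neurons come. Barhl1-positive marks those neurons among them that also had Pax6 and Barhl1, factors known in migrating pontine neurons. Granule progenitor-like was the name of the remaining Hox-negative clusters whose progenitor, dividing or granule scores exceeded their neuronal ones. No granule marker was required for it, so it can hold more than 1 cell type.

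In control embryos at E14.5, Id1 and Id3 were highest in Hox-positive progenitors, the dorsal rhombic lip and astroglia. Both were near the floor of the assay in most neurons. Id2 was high in the same progenitors and higher still in the differentiated Hox-positive Barhl1-positive neurons. Id4 had another pattern, with its highest levels in inhibitory neurons, in Pax6-negative neurons and in astroglia. Levels are CPM of the summed UMIs of a class in a library, and since transcript length was not corrected for, they are set side by side between classes and never between Id genes.

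**Figure D1:**
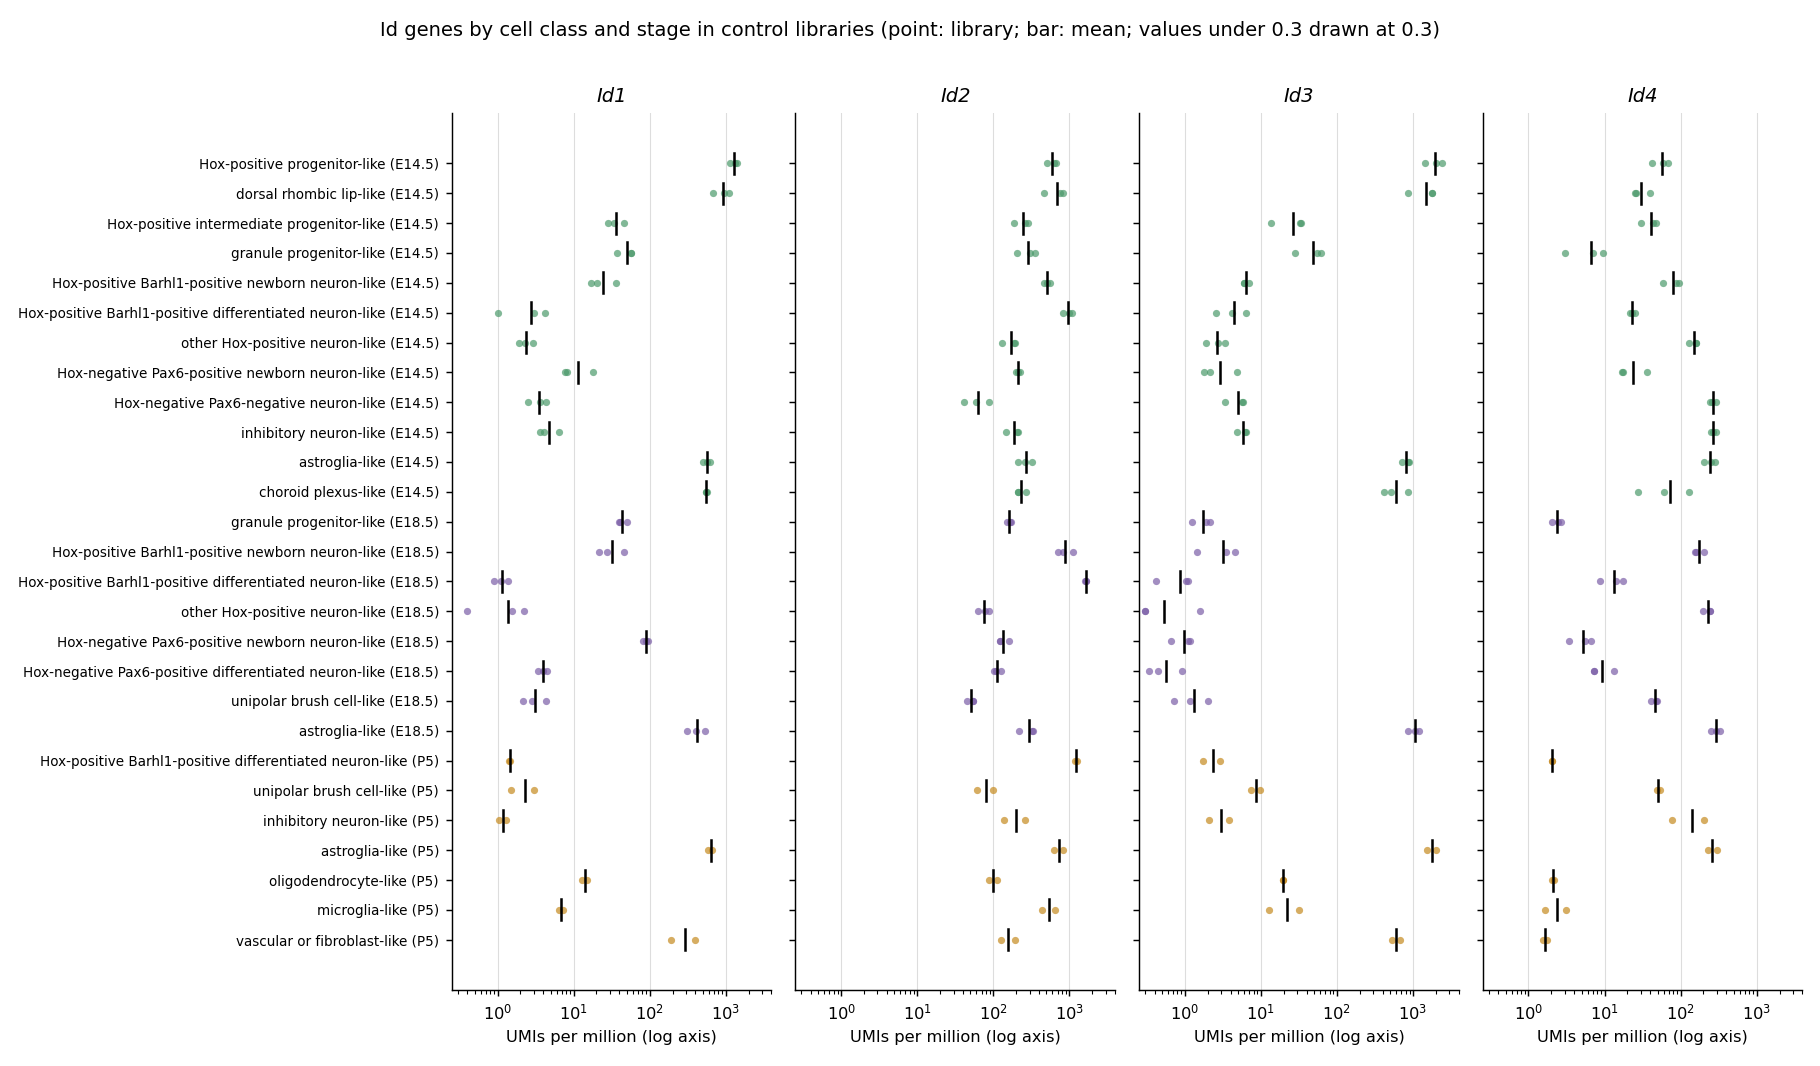
CPM of Id1, Id2, Id3 and Id4 (log axis) in each named class of the control libraries at E14.5, E18.5 and P5; each point is 1 library. At E14.5 Id1 and Id3 are highest in Hox-positive progenitor-like, dorsal rhombic lip-like and astroglia-like cells, and at E18.5 and P5 in astroglia-like cells. Id2 is at 824 CPM or more in the Hox-positive Barhl1-positive differentiated neurons of every control library.

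Id1 was highest in Hox-positive progenitor-like cells, with 1413, 1344 and 1129 CPM in the 3 control libraries at E14.5. The dorsal rhombic lip-like class had 956, 1113 and 678 CPM of Id1. The lowest progenitor library stood just above the highest rhombic lip library, so this order rests on a narrow gap. Next came astroglia-like cells with 563 ± 56.3 CPM (SD, n = 3) and choroid plexus-like cells with 552 ± 14.7, whose library values overlapped. Granule progenitor-like cells held only 50.3 ± 11.7 CPM of Id1. The neuronal classes other than the newborn ones were at 2.40 to 4.70 CPM.

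Id3 had the same first 6 classes in the same order, and the values of its first 4 classes overlapped from each class to the next. Hox-positive progenitor-like cells had 2372, 2027 and 1425 CPM of Id3 in the 3 control libraries. Dorsal rhombic lip-like cells had 1754, 1796 and 862 CPM, and the third library was low in both classes. Astroglia-like cells had 817 ± 96.8 CPM and choroid plexus-like cells 595 ± 237. Granule progenitor-like cells were at 47.8 ± 17.7 CPM, and neurons at 2.68 to 6.36.

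The share of cells with an Id UMI gave the same picture once every cell had been thinned to 5000 UMIs. In Hox-positive progenitor-like cells 85.1% had an Id1 UMI and 85.8% an Id3 UMI, and 80.2% had both. In the dorsal rhombic lip-like class these shares were 77.8%, 87.2% and 71.7%. In the neuronal classes 1.24% to 3.75% of cells had an Id3 UMI after the same thinning, which is the share to set the others against. Free RNA was not measured. Without thinning, the Id3 share was 93.0% in Hox-positive progenitor-like cells, at a mean median depth of 19873 UMIs, and 4.44% in other Hox-positive neuron-like cells, at 20024.

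Id2 was present in every class. Hox-positive Barhl1-positive differentiated neuron-like cells had 1087, 824 and 988 CPM of Id2 at E14.5. Their newborn counterparts had 507 ± 46.5 CPM, the dorsal rhombic lip-like class 683 ± 193 and the Hox-positive progenitor-like class 600 ± 82.6. The library values of these 4 classes overlapped from each to the next in the order of their means. Granule progenitor-like cells had 288 ± 76.1 CPM, and 7 classes down to other Hox-positive neuron-like cells, at 171 ± 35.5, could not be separated from their neighbors by their libraries. The Hox-negative Pax6-negative neurons were lowest, at 62.3 ± 23.0 CPM.

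Id4 was the gene of another set of neurons. Inhibitory neuron-like cells had 290, 248 and 266 CPM, Hox-negative Pax6-negative neuron-like cells had 247, 293 and 256, and the library values of both overlapped. Astroglia-like cells, at 246 ± 42.8 CPM, also overlapped with them. Other Hox-positive neuron-like cells stood apart below, at 149 ± 17.7 CPM. Granule progenitor-like cells were lowest, at 6.56 ± 3.29 CPM of Id4, and 3.1% of them had an Id4 UMI after thinning, against 50.4% of inhibitory neuron-like cells.

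Within the neuronal classes, Id4 varied from cluster to cluster. A cluster led by Tcf7l2 and Shox2 had 665 ± 126 CPM and one led by Foxp2 and Nr4a2 had 484 ± 45.9, whereas a cluster led by Th and Ppp1r17 had 41.6. Id1, Id2, Id3 and Id4 took no part in the clustering, but genes that vary with them did, so no test was made between clusters or classes.

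At E18.5 no cluster was named Hox-positive progenitor-like, dorsal rhombic lip-like or choroid plexus-like under the limits used here. The paper places some of its E18.5 pontine cells in a progenitor state, so the lack of a class is not a lack of such cells. Id3 was high in astroglia-like cells alone among the classes with enough cells. Astroglia-like cells had 1205, 866 and 1069 CPM of Id3, and every other class with at least 10 cells in each control library had 0.525 to 3.15. Astroglia-like cells were 0.811% of the cells of the control libraries and gave 76.5% of their Id3 UMIs. Id1 was also highest in astroglia-like cells, at 420 ± 115 CPM. The second class for Id1 was the Hox-negative Pax6-positive newborn neuron-like cells, at 88.6 ± 5.72 CPM. Granule progenitor-like cells had 43.5 ± 5.64 CPM of Id1, and because they were so many they gave 53.5% of all Id1 UMIs.

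Id1 was uneven within these classes of E18.5 controls. A newborn cluster led by Sept4 and Nhlh1 had 159 ± 12.6 CPM, and the other newborn clusters had 46.5 to 90.9. Among the granule progenitor-like clusters, one led by Ube2c and Cenpf, genes of mitosis, had 81.0 ± 16.9 CPM of Id1, one led by Nts and histone genes had 27.2 ± 7.34, and one led by Pvalb and Pdlim3 had 8.60 ± 5.12.

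Id2 at E18.5 was led by the Hox-positive Barhl1-positive neurons. The differentiated ones had 1678, 1643 and 1603 CPM and the newborn ones 833, 703 and 1124, with no overlap between the classes. After thinning, 94.3% of the differentiated and 82.0% of the newborn cells had an Id2 UMI. Unipolar brush cell-like cells were lowest, at 51.2 ± 5.49 CPM. The differentiated class gave 55.7% of all Id2 UMIs of the control libraries.

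Id4 at E18.5 was at 291 ± 39.96 CPM in astroglia-like cells, 230 ± 26.5 in other Hox-positive neuron-like cells and 172 ± 26.1 in Hox-positive Barhl1-positive newborn neurons. The last 2 overlapped in their library values. Hox-negative Pax6-negative neuron-like cells had 793 and 487 CPM in 2 control libraries, but only 15 and 35 cells, and none in the third. In the differentiated Hox-positive Barhl1-positive neurons it was at 13.5 CPM. After thinning, 39.8% of the newborn cells of these neurons had a UMI of both Id4 and Id2, against 5.82% of the differentiated ones. The newborn cells were at 33.7%, 38.1% and 47.4% in the control libraries. Astroglia-like cells overlapped with them, at 31.25%, 31.8% and 39.6% of 16, 22 and 53 thinned cells.

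At P5 the dissected pontine nuclei gave 2 libraries, and their values are listed without a test. Id2 was at 1189 and 1264 CPM in the Hox-positive Barhl1-positive differentiated neurons, and 96.3% of these cells had an Id2 UMI after thinning, against 99.8% without it. They gave 92.3% of the Id2 UMIs. Astroglia-like cells had 594 and 670 CPM of Id1, 623 and 832 of Id2, 1544 and 2003 of Id3 and 228 and 297 of Id4, so all 4 genes were present there. Vascular or fibroblast-like cells were next for Id1, at 394 and 192 CPM, and for Id3, at 667 and 525. Microglia-like cells had Id2 at 435 and 648 CPM, with Id4 at 3.09 and 1.67. The second P5 library held nearly all granule progenitor-like cells, 174 against 4, and nearly all Hox-negative Pax6-positive newborn cells, 538 against 7, so no level of these classes is given as a P5 mean.

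The differentiated Hox-positive Barhl1-positive neurons were not alike in Id2. At E18.5 a cluster led by Lmo4 and Cntnap5a had 2157 ± 124 CPM, one led by Lmo4 and Gabrg1 had 1545 ± 88.7, and one led by the caudal Hox genes Hoxa5 and Hoxc4 had 1007 ± 111. At P5 the cluster led by Hoxa5 and Hoxc4 was again the lowest of its class, at 655 ± 38.4 CPM (SD, n = 2 libraries). The highest P5 cluster, led by Sst and Pcp4, had 1646 ± 86.2.

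**Figure D2:**
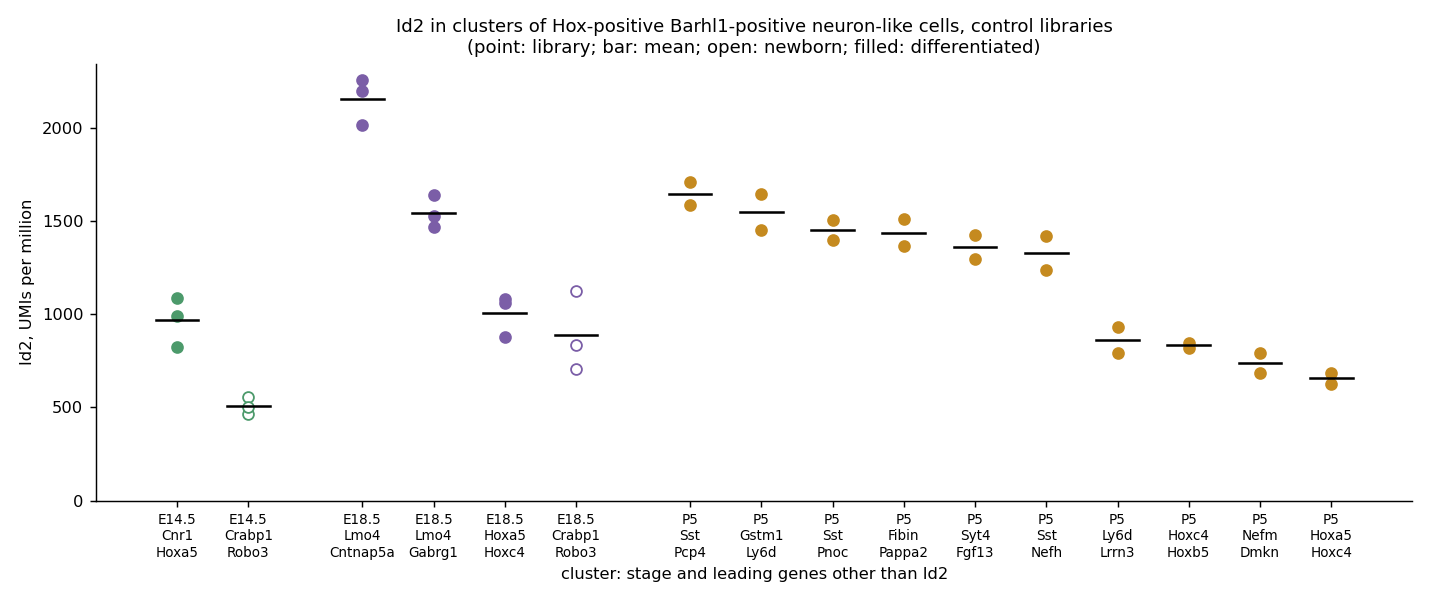
CPM of Id2 in each cluster of the Hox-positive Barhl1-positive neurons of control libraries at E14.5, E18.5 and P5, labelled by their leading genes; each point is 1 library. Clusters led by Hoxa5 and Hoxc4 lie lowest among the differentiated clusters at E18.5, at 1007 CPM, and at P5, at 655.

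Over the 27 combinations of class and stage in control libraries, Id1 and Id3 were alike, with a Pearson correlation of 0.88 of their log2(CPM + 1) values. The other 5 pairs of Id genes had correlations of -0.09 to 0.24. The 27 points share libraries within a stage and are not independent, so these values are descriptive. Among 11513 genes with at least 20 CPM in a combination, the 5 most like Id3 were Wwtr1 (0.96), Acsf2 (0.92), Notch3 (0.92), Cyr61 (0.92) and Ccdc102a (0.91). For Id1 they were Pi4k2b (0.93), Dhrs4 (0.92), Yap1, Gpx8 and Tpd52l2 (0.91 each). Id2 had weaker likenesses, with Lmo4 at 0.71, Vrk2 at 0.62, Irx2 and Nab1 at 0.61 and Prox1os at 0.58. For Id4 they were Irx3 (0.78), Meis2 and Zfhx4 (0.76 each), 2700069I18Rik and Alkbh7 (0.73 each).

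To ask whether the hypomorphic Atoh1 allele changed the Id genes at E14.5, the 3 mutant hindbrains were compared with the 3 controls. In all sorted cells Id1 was at 134, 96.6 and 71.6 CPM in controls and at 186, 207 and 181 in Atoh1S193A/- libraries. Id3 was at 214, 144 and 82.2 CPM in controls and at 312, 283 and 218 in mutants. The groups did not overlap for Id1 or for Id3, and both were higher in 3 of 3 mutants than in the littermate control of the same number. In bulk sums such as these, more cells of a type and more RNA per cell cannot be told apart.

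In edgeR's quasi-likelihood test without a block and with Benjamini-Hochberg adjustment over 10240 genes, Id1 differed by a log2 change of 0.90 (SE 0.20, adjusted p = 0.31) and Id3 by 0.87 (SE 0.32, adjusted p = 0.40). Neither passed the threshold of an adjusted p under 0.05 with an absolute log2 change over 0.25, and 0 of the 4 Id genes was called, where 0.00977% of all genes tested were. The unadjusted p was 0.00296 for Id1. Each mutant has a control from its own litter, and same-numbered libraries deviated together. With the littermate pair as a block, Id1 rose by 0.94 (SE 0.14, adjusted p = 0.0096) and Id3 by 0.95 (SE 0.14, adjusted p = 0.0089). That blocked fit called 17.6% of all genes, so 2 of 4 Id genes is read against a broad background. Id2 (-0.07) and Id4 (-0.23) were not called in it.

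**Figure D3:**
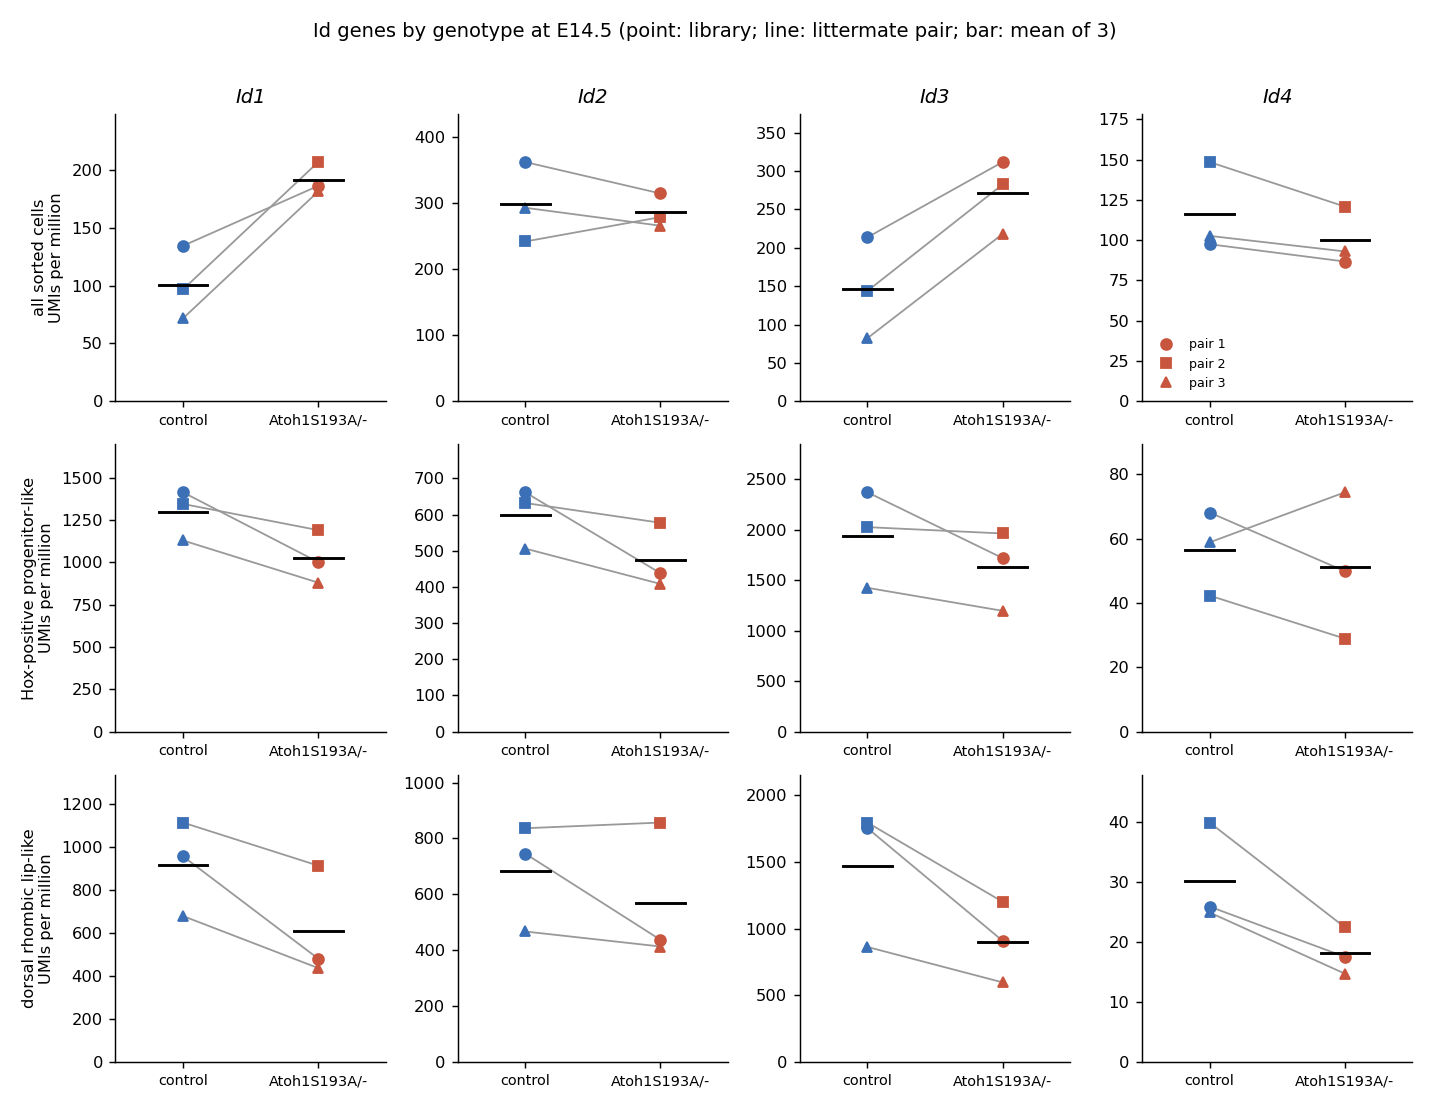
CPM of Id1, Id2, Id3 and Id4 at E14.5 in all sorted cells, Hox-positive progenitor-like cells and dorsal rhombic lip-like cells of 3 control and 3 Atoh1S193A/- libraries; lines join littermates. Id1 and Id3 are higher in every mutant than in its littermate in all sorted cells and lower than in its littermate in both progenitor classes, where the groups overlap.

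The gain of Id1 and Id3 in the sorted hindbrain went with a gain of the classes that hold them. Hox-positive progenitor-like cells were 1.76% of the control and 6.71% of the mutant cells, and dorsal rhombic lip-like cells 4.28% and 10.9%. The libraries of the groups did not overlap in either share, which was at most 2.25% and 5.17% in controls and at least 4.59% and 9.68% in mutants. In the control libraries those 2 classes gave 26.1% and 44.1% of the Id1 UMIs and 27.4% and 49.2% of the Id3 UMIs. Choroid plexus-like cells were 0.756% and 2.87%. The 5 markers of choroid plexus and ependyma summed to 770 to 2584 CPM over all sorted control cells and to 1742 to 13186 over mutant cells. The 9 astroglial markers summed to 275 to 402 CPM in controls and to 342 to 574 in mutants, while astroglia-like cells were 1.79% and 1.56% of the cells. The 8 microglial markers summed to 2.67 to 14.9 CPM in controls and 0.606 to 9.93 in mutants.

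With the class shares held at the mean of the control libraries, the direction of the difference was the opposite. Id1 then was at 74.4 to 100.5 CPM in controls and 62.5 to 89.7 in mutants, and Id3 at 87.5 to 163 against 74.9 to 117. Id2, whose measured values overlapped between the groups, was then at 269 to 317 CPM in controls and at 236 to 264 in mutants, without overlap. The ratio of mutant to control means went from 1.90 as measured to 0.824 at fixed shares for Id1. At fixed shares each mutant was lower than its littermate, in 3 of 3 pairs for both genes, by a mean of -0.28 for Id1 and -0.35 for Id3 on the log2 scale. No test was run on these weighted values.

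**Figure D4:**
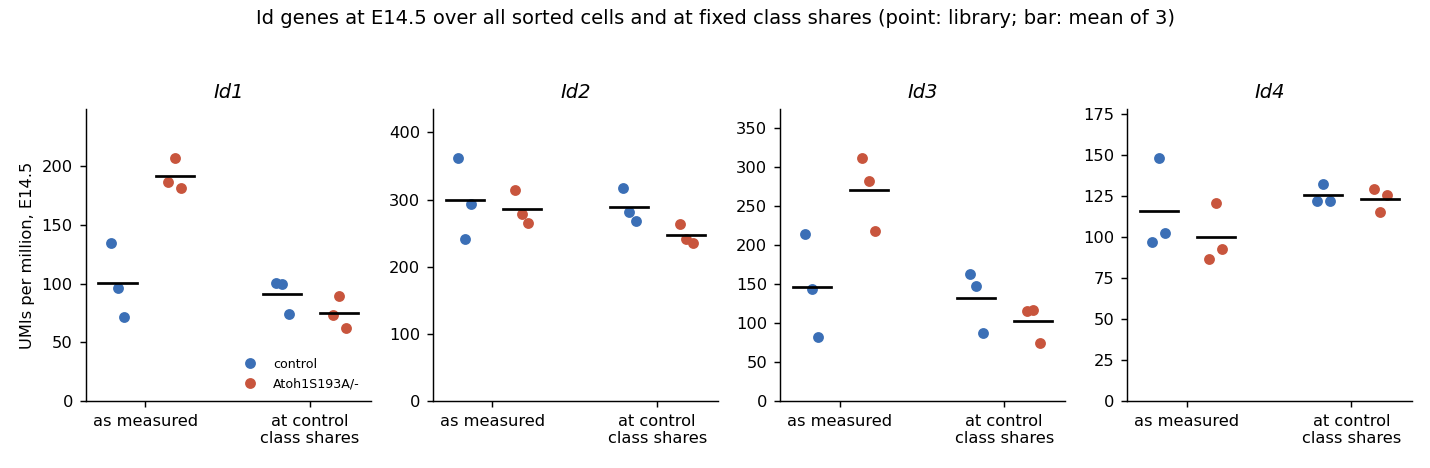
CPM of each Id gene in the E14.5 libraries as measured over all sorted cells and after weighting the class levels by the mean class shares of the control libraries; each point is 1 library. The mutant libraries of Id1 and Id3 lie above the controls as measured (181 to 207 CPM against 71.6 to 134 for Id1) and overlap with them at fixed shares (62.5 to 89.7 against 74.4 to 100.5).

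Within the Hox-positive progenitor-like class, 3 of the 4 Id genes were lower in every mutant than in its littermate. The class held 73, 112 and 84 cells in the control libraries and 367, 317 and 516 in the mutants. Id1 was at 1001, 1190 and 879 CPM in mutants against the 1413, 1344 and 1129 of controls, and the groups overlapped. Id2 was at 661, 632 and 506 CPM in controls and 438, 577 and 408 in mutants, which also overlapped. Id3 was at 1720, 1964 and 1197 CPM in the mutants. Id4, the least abundant there, was at 42.3 to 68.1 CPM in controls and 28.9 to 74.4 in mutants.

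Without the block, edgeR's test called none of them in this class, and the unadjusted p was 0.012 for Id1 and 0.022 for Id2. With the littermate block, Id1 fell by 0.39 (SE 0.08, adjusted p = 0.022) and Id2 fell by 0.38 (SE 0.08, adjusted p = 0.042) on the log2 scale. Id3 differed by -0.30 (adjusted p = 0.15) and was not called. In that fit 0.872% of all genes tested were called. Without the third pair the changes were -0.36 for Id1 (adjusted p = 0.088) and -0.38 for Id2 (adjusted p = 0.081), and Id2 also lost its call with finer clusters and with doublets kept. Choroid plexus markers summed to 31.6 to 50.1 CPM in the control and 56.5 to 234 in the mutant cells of this class. Their part in the result was not tested.

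Dorsal rhombic lip-like cells, the Hox-negative progenitors with Msx1 and Wls, showed larger differences. Id1 was at 956, 1113 and 678 CPM in the controls and at 480, 913 and 436 in the mutants. Id3 was at 908, 1201 and 596 CPM in mutants, against 1754, 1796 and 862 in controls. Both were lower in 3 of 3 pairs, and the groups overlapped, with the third control below the second mutant for both genes. Id4 was at 25.9, 39.9 and 24.9 CPM in controls and at 17.5, 22.4 and 14.7 in mutants, with no overlap.

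In the fit with the block, Id1 fell by 0.66 (SE 0.10, adjusted p = 0.017), Id3 by 0.71 (SE 0.08, adjusted p = 0.0021) and Id4 by 0.75 (SE 0.11, adjusted p = 0.015) in this class. Id2 was not called (-0.32, adjusted p = 0.34). The blocked fit called 0.676% of all genes there, and the fit without a block called no Id gene. With doublets kept, Id3 alone was called in the blocked fit (-0.63, adjusted p = 0.018), as it was with finer clusters (-0.80, adjusted p = 0.00042). The same direction was seen in both clusters of the class. In the mainly non-dividing cluster Id3 was at 1778, 1873 and 831 CPM in controls and 933, 1290 and 562 in mutants. In the dividing cluster it was at 1730, 1726 and 886 against 879, 1116 and 633. The non-dividing cluster was 57.4% of the class in controls and 61.4% in mutants.

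The file headers name an older version of Cell Ranger for E14.5 control 1 and 2 than for all other libraries, and those 2 libraries also had the higher Id3 of the dorsal rhombic lip-like class. In the libraries of the newer version alone, which are 1 control and 3 mutants, the fit is given as values with no test. In it Id1 differed by -0.24 and Id3 by -0.02 in this class, and Id1 by -0.25 in Hox-positive progenitor-like cells. That lone control is the low control 3, so the part of the version in these differences cannot be told apart from it. Within the third littermate pair, both of the newer version, Id1 differed by -0.64 and Id3 by -0.53 in dorsal rhombic lip-like cells, and Id1 by -0.36 in Hox-positive progenitor-like cells. In all sorted cells the fit of the newer version gave 1.35 for Id1 and 1.65 for Id3. Choroid plexus markers summed to 68.0 to 159 CPM in control and 202 to 476 in mutant dorsal rhombic lip-like cells, and their part was not tested.

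Over the 12 classes with enough cells, 43 tests of an Id gene were made at E14.5. None was called without a block, where 0.0118% of all tests of all genes were, and 5 were called with it, where 0.324% were. Another 5 of the 43 reached the filter, a UMI in 10% of the cells of a group, through the mutants alone, and 0 of those was called. The 5 calls are the Id1 and Id2 of Hox-positive progenitor-like cells and the Id1, Id3 and Id4 of dorsal rhombic lip-like cells. Granule progenitor-like cells had Id3 at 54.1, 61.5 and 27.8 CPM in controls and 23.7, 53.9 and 15.2 in mutants, lower in 3 of 3 pairs. The blocked fit gave -0.78 with an adjusted p of 0.13 for it. In astroglia-like cells Id1 overlapped, with 616, 504 and 570 CPM in controls against 632, 503 and 580 in mutants.

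In neurons Id1 and Id3 were low, and of 6 neuronal classes Id1 passed the detection filter in 2 and Id3 in 5. In 3 of those 5 classes Id3 was higher in every mutant, without overlap. In Hox-negative Pax6-positive newborn neurons Id3 was at 1.79 to 4.86 CPM in controls and 5.76 to 15.3 in mutants. In other Hox-positive neuron-like cells it was at 1.92 to 3.40 against 4.90 to 7.89, and in inhibitory neuron-like cells at 4.90 to 6.34 against 7.92 to 11.8. Id3 passed the filter in these 3 classes through the mutant cells alone, since 4.44% to 6.68% of the control cells had an Id3 UMI without thinning, and these values are given without a test. In Hox-positive Barhl1-positive newborn and differentiated neurons Id3 overlapped between the groups and was lower in the mutant of the second pair. The Id3 level of all sorted cells was higher in the mutants, and the part of RNA from other cells in these low values was not tested. Id2 had means of 213 CPM in control and 176 in mutant Hox-negative Pax6-positive newborn neurons, without overlap. It was lower in 3 of 3 pairs there, and in Hox-positive Barhl1-positive differentiated and other Hox-positive neuron-like cells, where the groups overlapped. In the remaining neuronal classes the pairs were mixed, and Id2 was called in no neuronal class.

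The partners and regulators of the Id genes were read from fixed lists. Without a block, no gene of any list was called at E14.5 in all sorted cells. The blocked fit, to which the following counts belong, called 17.6% of all genes. In it 0 of the 3 E proteins was called, Tcf3 at 0.23 (adjusted p = 0.019, under the limit on size), Tcf4 at -0.09 and Tcf12 at 0.05, for a median of 0.051 beside 0.0043 over all genes tested. None of the 7 BMP ligands was detected in enough cells to be tested. Of the BMP receptors 1 of 5 tested was called, Bmpr1a at 0.38, and of the Smads that carry the signal 1 of 3, Smad5 at 0.37. Of 4 feedback regulators and antagonists that passed the filter in both groups, Nog (0.36), which encodes the BMP-binding noggin, was called. Bambi, a decoy receptor, passed it in the mutants alone, with a UMI in 8.16% of control and 12.4% of mutant cells.

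In the same fit, and beside the same 17.6%, other targets of BMP signaling were called as well. Msx1 rose by 1.49 and Msx2 by 0.95, both homeobox genes of the dorsal midline, and they were the 2 of 3 on that list that were tested. Among the Hes and Hey repressors, Hes1 rose by 1.35 and Hes5 by 1.10, both targets of Notch, out of 4 tested. Among proneural and neuronal basic helix-loop-helix factors, 6 passed the filter in both groups, of which Atoh1 rose (0.48) and 3 fell, among them Neurod6 (-0.43) and Neurod2 (-0.32). Cdkn1c, an inhibitor of the cell cycle, fell by 0.33. Within classes, 7 of 378 tests of a list gene were called with the block at E14.5, beside the 0.324% of all tests over these classes. They were Nog in dorsal rhombic lip-like cells (-0.80), and Hes5 (0.38) and Hes6 (-0.41) in Hox-positive progenitor-like cells. In Hox-positive intermediate progenitor-like cells they were Hes5 (1.08), Hes6 (0.40), Msx1 (0.81) and Cdkn1a (0.91), where 0.849% of all genes were called, and no Id gene was called in that class.

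The same comparison was made at E18.5. Over all sorted cells Id1 was at 40.9, 36.1 and 34.7 CPM in controls and 41.3, 46.3 and 50.2 in mutants, with a narrow gap between the groups. Id2 was at 266, 283 and 411 CPM in controls and 262, 236 and 301 in mutants. Id4 was at 17.5, 17.6 and 23.4 CPM against 21.7, 14.3 and 34.4. Id3 was at 2.70 to 23.2 CPM over the 6 libraries and had a UMI in too few cells to be tested.

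No Id gene was called in all sorted cells at E18.5, where edgeR's test without a block called 0% of all genes and the blocked fit called 0.253%. Id1 had the smallest unadjusted p, 0.019, at a log2 change of 0.29. Over 8 classes 18 tests were made, and 0 was called without a block (0.0688% of all tests) and 2 with it (0.519% of all tests). Both were of Id2.

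Unipolar brush cell-like cells, excitatory interneurons marked by Eomes, had 53.9, 44.9 and 54.8 CPM of Id2 in controls and 34.9, 25.7 and 33.2 in mutants, with no overlap. Without a block the log2 change was -0.69 (adjusted p = 0.13), and with it Id2 fell by 0.70 (SE 0.10, adjusted p = 0.0016), in a fit that called 0.95% of all genes. The class was made of 2 clusters whose proportions moved. The cluster with less Id2, at 25.7 ± 3.31 CPM in controls and 24.0 ± 2.18 in mutants, went from 50.5% to 62.2% of the class. The other had 86.6, 63.7 and 80.0 CPM in controls and 56.0, 26.7 and 48.2 in mutants. With finer clusters the blocked change of Id2 in the class was -0.28 (adjusted p = 0.42), and with doublets kept it was -0.40 (adjusted p = 0.098).

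Hox-negative Pax6-positive differentiated neuron-like cells had 125, 103 and 109 CPM of Id2 in controls and 101, 80.1 and 63.7 in mutants, again with no overlap. With the block Id2 fell by 0.49 (SE 0.07, adjusted p = 0.0053), where 0.472% of all genes were called, and without it the change was -0.47 (adjusted p = 1.0). Its cluster with the most Id2, at 208 ± 16.9 CPM in controls and 133 ± 54.2 in mutants, went from 23.5% to 19.7% of the class. The cluster with the least, at 34.7 and 34.3 CPM, went from 18.7% to 26.1%. The call was lost without the second pair (-0.53, adjusted p = 0.099), without the third pair (-0.34, adjusted p = 0.065) and with doublets kept (-0.39, adjusted p = 0.26). The Id2 of the Hox-positive Barhl1-positive differentiated neurons, which hold most of it, was at 1661, 1658 and 1311 CPM in mutants against 1678, 1643 and 1603 in controls, and was not called.

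On the fixed lists, Bmpr1b, a BMP receptor gene, was the 1 call of 229 tests over the classes without a block at E18.5, at 0.81 in unipolar brush cell-like cells (adjusted p = 0.025), beside 0.0688% of all tests. With the block 7 of the 218 tests of a gene that passed the filter in both groups were called, beside 0.519% of all tests. Bmpr1b (0.82) and Nhlh1 (-0.64) were called in unipolar brush cell-like cells, where 0.95% of all genes were. Atoh1 was called in Hox-negative Pax6-positive newborn neurons (1.24) and in granule progenitor-like cells (0.36). Nhlh1 (-0.47) was called in the Hox-negative Pax6-positive differentiated neurons, Hes1 (-0.54) in granule progenitor-like cells and Cdkn1c (-0.51) in Hox-positive Barhl1-positive differentiated neurons.

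Whether the effect of genotype differed between E14.5 and E18.5 was tested as an interaction. In all sorted cells it was called for 0 of the 4 Id genes, and for 0% of all genes. The term for Id1 was -0.60, with an unadjusted p of 0.026 and an adjusted p of 0.59. Over 6 classes with at least 10 cells in all 12 embryonic libraries, 0 of 22 Id tests was called, again with 0% of all genes. A call in dorsal rhombic lip-like or Hox-positive progenitor-like cells had no counterpart to test, since no E18.5 cluster was given either name.

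From E14.5 to E18.5 Id1 and Id4 fell in the sorted cells of control hindbrains, and Id3 was lower. In all sorted cells Id1 went from 71.6 to 134 CPM down to 34.7 to 40.9, Id3 from 82.2 to 214 down to 4.53 to 13.9, and Id4 from 97.4 to 148 down to 17.5 to 23.4. None of these 3 had overlapping groups. Id1 fell by 1.51 (SE 0.19, adjusted p = 0.0012) and Id4 by 2.66 (SE 0.21, adjusted p = 0.00044) on the log2 scale in edgeR's test. Id3 had a UMI in 15.6% of the cells at E14.5 and in 2.26% at E18.5, so it passed the filter through E14.5 alone, and its levels are given without a test. Id2 did not pass the test, at 0.02 (SE 0.21, adjusted p = 0.94). The background was high, since 51.6% of all genes were called between the stages. The file headers name the older Cell Ranger version for E14.5 control 1 and 2 and the newer one for every E18.5 control. The part of the version in these changes therefore cannot be fully told apart from the stage. The classes richest in Id1 and Id3 at E14.5 were among those for which no cluster was named at E18.5. For Id4, Hox-negative Pax6-negative and other Hox-positive neuron-like cells gave 38.3% and 24.7% of the UMIs of controls at E14.5. These classes were 20.7% and 16.9% of the control cells at E14.5 and 0.322% and 1.51% at E18.5. The part of these shares in the fall of Id4 was not tested.

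**Figure D5:**
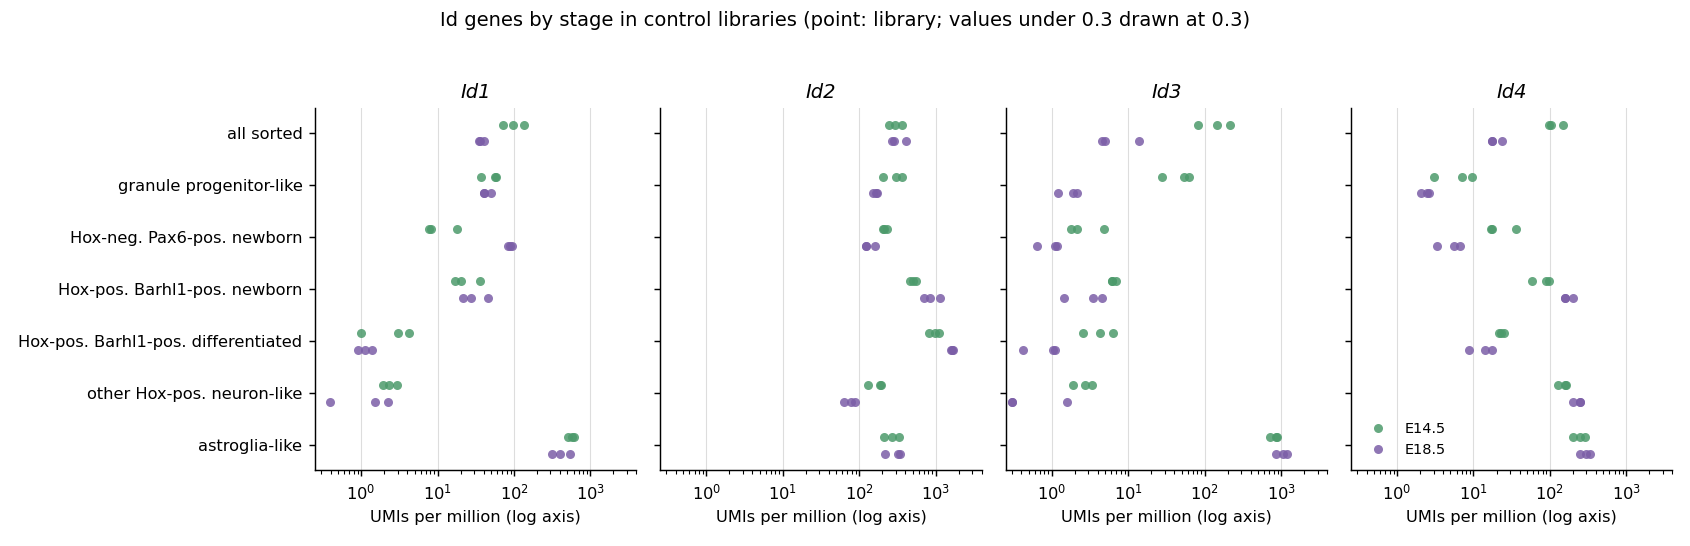
CPM of each Id gene (log axis) at E14.5 and E18.5 in the 6 classes with at least 10 cells in every control library of both stages; each point is 1 library. Id1 is higher at E18.5 in the Hox-negative Pax6-positive newborn neurons, at 82.6 to 94.0 CPM against 7.78 to 18.1, while Id3 is lower in granule progenitor-like cells.

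Classes were named within each stage, so a class can hold other cells at E18.5 than at E14.5. A change of level and a change of the cells under a name cannot be told apart. Within the 6 classes with at least 10 cells in every control library of both stages, 14 tests of an Id gene passed the filter at both stages. Of these, 8 were called, 4 of them lower at E18.5. Of the tests of all genes in these classes 39.8% were called, a share that includes genes that passed at 1 stage alone. Another 5 tests of an Id gene passed the filter only through the stage where they were higher, and their values are given without a test. One of these was Id1 in Hox-negative Pax6-positive newborn neurons, at 18.1, 8.11 and 7.78 CPM at E14.5 and at 89.0, 82.6 and 94.0 at E18.5, without overlap. Without thinning, 9.91% and 41.7% of these cells had an Id1 UMI. After thinning, 4.53% of these cells had an Id1 UMI at E14.5 and 26.2% at E18.5. In the same class Id2 fell by 0.77 (adjusted p = 0.00081), where 48.8% of all genes were called. Id4 passed the filter there through E14.5 alone, with a UMI in 20.5% of the cells and then in 5.63%.

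In granule progenitor-like cells Id3 was near 0 at E18.5. It was at 54.1, 61.5 and 27.8 CPM at E14.5 and at 1.89, 1.23 and 2.15 at E18.5, without overlap. Id3 had a UMI in 22.5% and then in 2.12% of these cells, and Id4 in 11.4% and then in 4.23%, so both passed the filter through E14.5 alone. Id2 changed by -0.87 (adjusted p = 0.0045), and Id1, which was not called, was at 36.7 to 57.5 CPM and then at 40.1 to 50.03 (-0.24, adjusted p = 0.25). Of all genes, 39.9% were called in this class. The Id3 level left at E18.5 lies within the range of the neuronal classes of that stage.

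In the Hox-positive Barhl1-positive classes, Id2 was higher at E18.5 in newborn and in differentiated neurons. In the newborn neurons Id2 went from 555, 462 and 504 CPM to 833, 703 and 1124, a change of 0.72 (SE 0.15, adjusted p = 0.0028). Id4 rose with it, from 57.9 to 96.1 CPM to 155 to 202, by 1.00 (SE 0.16, adjusted p = 0.00062). The share of these cells with UMIs of both genes after thinning went from 23.3% to 39.8%. Id3, at 1.45 to 6.94 CPM, had a UMI in 10.2% of the cells at E14.5 and passed the filter through that stage alone. In this class 34.6% of all genes were called.

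In the differentiated neurons Id2 went from 1087, 824 and 988 CPM to 1678, 1643 and 1603, a change of 0.65 (SE 0.10, adjusted p = 0.00039). Id4 fell there by 0.97 (SE 0.22, adjusted p = 0.0043), from 21.4 to 25.2 CPM to 8.68 to 17.4, and with finer clusters that change was 0.014. In this class 55.3% of all genes were called. Other Hox-positive neuron-like cells went the other way for Id2, from 195, 131 and 189 CPM to 87.1, 63.9 and 77.1 (-1.32, SE 0.16, adjusted p = 0.00011). Their Id4 rose by 0.46 (adjusted p = 0.0068), which was 0.22 with doublets kept (adjusted p = 0.17), and 43.5% of all genes were called.

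Astroglia-like cells had high Id1 and Id3 at both stages. Id1 was at 504 to 616 CPM and then at 314 to 542 (-0.52, adjusted p = 0.091), and Id3 at 708 to 892 and then at 866 to 1205 (0.27, adjusted p = 0.28). None of the 4 was called in this class, where 16.4% of all genes were.

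Genes of the fixed lists were also called between the stages over all sorted control cells, where 51.6% of all genes were. Of the 27 list genes that passed the filter at both stages, 14 were called. Msx1, Msx2, Nog and Chrd, which encodes the BMP antagonist chordin, passed it at 1 stage alone. Msx1 had a UMI in 10.6% of the cells and then in 3.58%, Msx2 in 10.02% and then in 1.38%, Nog in 10.5% and then in 1.27%, and Chrd in 4.86% and then in 13.8%. Of the other 3 antagonists 0 was called. Of 5 BMP receptors that passed at both stages, Bmpr1a (0.69) and Bmpr2 (0.48) rose and Acvr2b (-0.81) fell. Smad5 rose by 0.29 and Smad1 fell by 0.25. Of the E proteins Tcf4 rose by 0.48, and Tcf3 and Tcf12 were not called. Neurod1, a factor of granule neurons, rose by 2.13, Nhlh1 rose by 0.50, Atoh1 fell by 1.41 and Neurod6 fell by 0.49. Hes6 fell by 0.74, Cdkn1c fell by 2.81, Cdkn1b rose by 0.88 and Cdkn1a rose by 0.76.

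In granule progenitor-like cells, where 39.9% of all genes were called, Msx1, Msx2, the ligand gene Bmp7 and Chrd passed the filter at 1 stage alone. Msx2 had a UMI in 26.4% of the cells and then in 2.73%, and Chrd in 2.60% and then in 20.1%. Fst, which encodes follistatin, fell by 2.01, Smad7 by 1.15 and Nbl1 by 1.00. Hes1 rose by 1.58 and Hes6 fell by 1.81, and 0 of the 3 E proteins was called. The receptors had 3 calls of 6 tested, the Smads 1 of 3, the basic helix-loop-helix factors that passed at both stages 7 of 7 and the cell cycle inhibitors 2 of 3. In the Hox-positive Barhl1-positive newborn neurons, where Id2 and Id4 rose, the E protein gene Tcf4 went from a mean of 1701 CPM to 2910 and rose by 0.68 (adjusted p = 0.00015), where 34.6% of all genes were called. In the differentiated neurons of that lineage 1 of 3 E protein genes was called, Tcf12 at -1.23, where 55.3% of all genes were.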

How the data were processed

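Single-cell libraries of sorted Atoh1-lineage cells were made with 10X Genomics Chromium. The authors deposited unnormalized UMI counts for each gene in each cell, made with Cell Ranger against mm10; the file headers name version 3.1.0 for 2 libraries (E14.5 control 1 and 2) and 5.0.1 for the other 12. Cells with at least 1000 genes and under 5% mitochondrial UMIs were kept, and the 7.5% with the highest Scrublet scores per library were removed. Clusters (scanpy 1.11.5, Leiden resolution 1.0, 2000 variable genes, 30 components) left out the Id genes and the listed genes. They were named from marker lists, which hold some of the listed genes. The limits were chosen with the means of the clusters in view, so names and shares can differ from those of the study. Of 33, 32 and 32 clusters at E14.5, E18.5 and P5, 3, 2 and 6 stayed unnamed.

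Counts were summed per library and class (at least 10 cells in each library) and tested, for genes detected in 10% or more of the cells of a group, with edgeR 4.0.16's quasi-likelihood test in R 4.3.3, TMM normalization and Benjamini-Hochberg adjustment. A gene that reached these 10% in 1 group alone was selected through the group where more cells had it. Its p is therefore not printed, and it is left out of the counts of calls by stage. The shares of all genes called, given beside the counts, still include such genes. Genes with an adjusted p under 0.05 and an absolute log2 change over 0.25 were called. The SE beside a log2 change is its absolute value divided by the square root of the F statistic. In simulated counts of the E14.5 comparison (10240 genes, 200 changed), 90% of the genes changed 2-fold and 100% of those changed 4-fold were called, with 5 false calls. Genes were simulated independently of each other, with no shared effect of litter, Cell Ranger version or class shares. These percentages therefore do not give the power of the real comparison. Mutants were collected with a littermate control, and same-numbered libraries correlated in their deviations from the group means (0.683, 0.832 and 0.716 at E14.5; 0.780, 0.808 and 0.908 at E18.5), so the fit with the pair as a block is given wherever it changes a call of an Id gene. Each library is 1 embryo or 1 pool, and sums of counts carry counting error besides. The SD gives the spread between libraries. The p weighs a change against the spread left in its fit, which with the block excludes differences between pairs. Shares of cells with a UMI were taken after thinning to 5000 UMIs, which left out 653, 813 and 1319 shallower cells at the 3 stages. Alternatives were DESeq2 1.42.0, size factors of the DESeq2 kind, no filter, other cell filters, finer clusters, Cell Ranger 5.0.1 alone and leaving out each library.

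The 4 Id genes, the E proteins, the called genes of the other lists (at most the 4 of largest change per list and comparison, and for stage in the classes set beside an Id change) and the 5 genes most like each Id gene in control classes were named. The members and the lists (E proteins, BMP ligands, receptors, Smads, antagonists and other targets, basic helix-loop-helix factors, Hes and Hey genes, cell cycle inhibitors) were chosen with earlier results of these data known.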

Additional observations from a re-analysis of the deposited data

Results flagged for a closer look

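In control libraries, Id2 differed in opposite directions between E14.5 and E18.5 in 2 neuronal classes of the Hox-positive hindbrain. The libraries of the stages did not overlap in either class. Id2 was higher at E18.5 in Hox-positive Barhl1-positive newborn neurons, by 0.72 on the log2 scale, and lower in other Hox-positive neuron-like cells, by a log2 change of -1.32. Id4 was higher at E18.5 in Hox-positive Barhl1-positive newborn neurons, by 1.00. In Hox-negative Pax6-positive newborn neurons the fitted change of Id4 was -2.29, but Id4 passed the detection filter there through E14.5 alone. It was selected through the stage where more cells had it, so no opposite movement of Id4 is read from this change. The Id4 levels of that class, given without a test, were 17.0 to 35.6 CPM at E14.5 and 3.37 to 6.63 at E18.5. The difference between the classes was not itself tested for either gene, and the classes come from the same libraries. Other Hox-positive neuron-like cells were 2794 control cells at E14.5 and 230 at E18.5, a mean of 16.9% and 1.51%. A change of level and a change of the cells under a name cannot be told apart.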

How the results depend on the processing

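The E14.5 comparison of all sorted cells, which called 0 of the 4 Id genes, called 1 with DESeq2 (Id1) and 2 with the replicate block. Over its classes 0 calls became 5 with the replicate block. At E18.5 the 0 calls over the classes became 1 with DESeq2, 2 without a filter on low counts and 2 with the replicate block. The share of all genes called with DESeq2 and without the filter is not given here. Those counts are therefore not read as results about the Id genes. The replicate block changed no call of the interaction, and replicate numbers do not pair libraries across stages. With the block under 6 other selections, added after seeing the data (other cell filters, finer clusters or 1 littermate pair left out), Id1 and Id3 of all sorted cells were called in 6 and 6, Id1 and Id2 of Hox-positive progenitor-like cells in 5 and 3, and Id1, Id3 and Id4 of dorsal rhombic lip-like cells in 4, 6 and 4. Id2 was called in 4 of 6 for unipolar brush cell-like and 3 of 6 for Hox-negative Pax6-positive differentiated neurons. Thinning to 2500 UMIs moved the share of Hox-positive progenitor-like cells with an Id3 UMI from 85.8% to 78.3%.

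The direction turned for differences near 0 and never for a call without a block, except Id4 by stage in Hox-positive Barhl1-positive differentiated neurons (0.014 at Leiden resolution 2.0). For Id2 by genotype at E14.5 (-0.09) the change ran from -0.22 (without E14.5 control 2) to 0.053 (without E14.5 control 1), and was 0.014 with mitochondrial UMIs under 10% and 0.022 with the block and that filter. Id4 by genotype at E18.5 (0.24) ran from -0.13 without E18.5 Atoh1S193A/- 3 to 0.49 without E18.5 Atoh1S193A/- 2. Id2 by stage (0.02) was -0.11 without E14.5 control 2, -0.21 without E18.5 control 3, 0.16 without E14.5 control 1 and -0.021 with mitochondrial UMIs under 10%. The interaction of Id3 (-0.21) was 0.06 without E14.5 control 3, 0.25 without E18.5 Atoh1S193A/- 2, 0.53 without E18.5 control 3 and -0.998 without E18.5 Atoh1S193A/- 3. That of Id2 (-0.18) ran from -0.32 without E18.5 control 1 to 0.051 without E18.5 control 3. The causes were not tested. Of the 8 stage calls in genes that passed the filter at both stages, 6 held in all 14 alternatives, and Id4 of other Hox-positive and of Hox-positive Barhl1-positive differentiated neurons lost it in 1 each. Low counts limit Id1 and Id3 in neurons.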

Other observations

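The vascular or fibroblast-like class of P5, with 131 and 35 cells in its libraries, was not uniform for Id1. Its clusters held only 81, 50 and 35 cells. Its endothelial cluster, with Cldn5, had 925 CPM, and its fibroblast cluster had 52. The level of its remaining cluster is not given. At E14.5, a cluster that stayed without a name and was led by Olig2 and Neurod6 had 309 CPM of Id2 and 212 of Id4.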
